A study of Mus musculus with 19 samples.

Results

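Syngeneic skin in this bone marrow transplantation study was not uniform in its hair transcripts, and the 8 syngeneic mice are described here by that difference. Of the 19 mice sequenced, 3 syngeneic mice held abundant hair shaft keratin transcripts and are called growing (ID_1528, ID_1533 and ID_1534), 4 held almost none and are called resting (ID_1527, ID_1530, ID_1531 and ID_1532), and ID_1529 lay between and is shown apart. The sets were chosen by the shaft keratin values themselves: the summed level was 6549, 3793 and 400 TPM (transcripts scaled to a fixed total in each library) in ID_1533, ID_1534 and ID_1528, 76.1 in ID_1529, and 16.6, 13.3, 11.1 and 11 in the resting mice. The nearest members on either side of the gap were therefore ID_1528 at 400 and ID_1527 at 16.6 TPM. Because measured values chose the sets, every difference between them is given as a description, with no test.

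All recipients were female BALB/c mice, an albino strain, aged 8 to 12 weeks, which were irradiated and received bone marrow with splenocytes from male donors. Syngeneic mice received BALB/c cells, and mice that developed the sclerodermatous, chronic form of graft-versus-host disease (Scl-cGVHD) received B10.D2 cells. Control IgG or an anti-CX3CL1 mAb was injected from day 7 to day 35, and skin was taken on day 42. ID_1527, ID_1528 and ID_1529 were the 3 syngeneic mice given control IgG, and ID_1530 to ID_1534 were the 5 given the mAb, so that each hair set held mice of both treatments. The dose given to the syngeneic mAb mice is not in the labels. Scl-cGVHD was present in the remaining 11 mice, of which 3 were given control IgG, 3 were given 0.5 mg of the mAb and 5 were given 1 mg. Libraries were made from whole skin, and TPM keeps no record of how deeply each was sequenced.

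A hair follicle passes through growth (anagen), regression (catagen) and rest (telogen). In growth, matrix cells at the base of the follicle divide under signals from the dermal papilla and from Wnt and Shh ligands, and their daughters differentiate into the hair shaft and into the inner root sheath that encases and guides it. The shaft is built of hair keratins cross-linked to keratin-associated proteins (Krtap), whereas the inner root sheath uses its own keratins and trichohyalin. At rest the lower follicle is gone, and the stem cells of the bulge and the hair germ beneath it remain.

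The hair keratin genes lie in dense clusters, and the windows upstream of several of them carry the same short motif close to the start of transcription. The 250 bases before the annotated RefSeq start (GRCm38.p6, all on the minus strand, shown 5′ to 3′ in the direction of transcription) are given for 4 genes with large differences that had an entry: the sheath keratins Krt71 (chr15:101743098-101743347) and Krt25 (chr11:99322952-99323201), the shaft keratin Krt31 (chr11:100050552-100050801) and the proline-rich hair protein gene Prr9 (chr3:92123948-92124197). Capitals mark TATAAA, the core of the TATA box.

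Krt71: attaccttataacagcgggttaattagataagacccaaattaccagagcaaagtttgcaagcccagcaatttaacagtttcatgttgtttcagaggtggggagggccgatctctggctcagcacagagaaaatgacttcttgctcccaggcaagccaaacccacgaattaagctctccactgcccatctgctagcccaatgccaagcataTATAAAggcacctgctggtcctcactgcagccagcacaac
Krt25: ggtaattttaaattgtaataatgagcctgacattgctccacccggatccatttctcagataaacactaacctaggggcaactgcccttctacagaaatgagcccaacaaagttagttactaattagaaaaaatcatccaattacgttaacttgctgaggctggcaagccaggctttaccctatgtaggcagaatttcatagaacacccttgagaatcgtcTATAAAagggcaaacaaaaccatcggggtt
Krt31: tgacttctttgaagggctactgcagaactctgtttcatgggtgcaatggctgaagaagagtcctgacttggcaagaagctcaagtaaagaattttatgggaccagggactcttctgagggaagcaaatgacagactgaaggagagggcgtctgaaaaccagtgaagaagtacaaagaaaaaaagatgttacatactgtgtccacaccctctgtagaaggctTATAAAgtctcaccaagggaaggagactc
Prr9: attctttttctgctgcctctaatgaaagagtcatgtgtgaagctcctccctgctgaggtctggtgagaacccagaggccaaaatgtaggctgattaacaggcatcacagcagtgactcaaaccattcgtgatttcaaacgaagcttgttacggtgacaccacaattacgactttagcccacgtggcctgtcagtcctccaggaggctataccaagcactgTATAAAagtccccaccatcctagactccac

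The first letter of TATAAA stood 40 bases before the start in Krt71, 30 in Krt25, 29 in Krt31 and 30 in Prr9. On the coding strand the motif was found in 5 of 9 shaft keratin windows and 6 of 9 inner root sheath windows for which RefSeq had an entry, against 7.59% of all 32851 windows of the same length. On either strand it was in 6 and 7 of these 9 windows, against 12.4% of all windows. For genes of shaft and sheath hardening, the list that holds Prr9, it was in 4 of 15 windows (26.7%) on the coding strand. Skeletal muscle genes, which were lower in growing skin, had it in 3 of 17 windows (17.6%) on that strand. Among 17 matrix factor windows it was in 0 on the coding strand and 2 on either strand. None of the 31 windows of cell cycle genes held it on either strand. All 4 printed windows hold the motif, which some of the other hair gene windows also held and others lacked. A match is a description of the letters only.

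All 14 ranked shaft keratins were higher in each growing mouse than in each resting mouse. Genes were ranked where at least 3 of the 8 syngeneic mice reached 1 TPM (15274 genes, Krtap genes left out), and a gene was counted where the sets did not overlap and the mean of log2(TPM + 1) differed by at least 1. By that rule 560 genes (3.67%) were higher and 350 (2.29%) lower in growing skin, with a median difference of -0.02 over all ranked genes. Without the limit on size, 2739 of the 15274 genes were higher in growing skin without overlap and 1552 were lower. Counts of genes without overlap, given for the lists below, stand beside these 2 totals. The rule for the sets used this same contrast, so nothing is read from the members' counts beside these shares and totals. Of the 560 genes, 98 reached 1 TPM in the growing mice alone, and 388 passed the filter without the growing mice. The log2(TPM + 1) scale understates the change of low genes, and a value of 0 in the table means only that the gene is listed at 0.

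Krt81, a cortex keratin, stood at 34.74, 934.82 and 528.42 TPM in ID_1528, ID_1533 and ID_1534, and at 0, 0.10, 0 and 0 TPM in the 4 resting mice. Its partner Krt86 stood at 36.34, 984.14 and 506.07 TPM in the growing mice and reached at most 0.18 TPM in the resting mice. Krt31 held 31.11, 527.82 and 306.81 TPM in the growing mice and 0.35, 0.04, 0.04 and 0.19 TPM in the resting mice. In each of these genes the sets were far apart, and ID_1528 lay far below the other growing mice. The differences in log2(TPM + 1) were 7.99 for Krt81, 7.97 for Krt86 and 7.24 for Krt31, with pooled SDs within the sets of 1.59, 1.58 and 1.36. Krt33a, Krt83 and Krt34 differed by 7.92, 7.68 and 7.67, and Krt35, Krt87 and Krt33b by 7.18, 7.08 and 7.01. The smaller differences belonged to Krt82 (4.43), Krt40 (3.50), Krt39 (3.06), Krt36 (2.95) and Krt32 (2.82).

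Krt32 was the shaft keratin that resting skin kept. It measured 10.73, 9.24, 9.46 and 10.85 TPM in the resting mice against 32.74, 125.22 and 109.34 TPM in the growing mice, a ratio of the means of 8.85. Krt35 was the shaft keratin with the highest level in ID_1528, at 94.99 TPM, against 394.41 and 320.08 TPM in ID_1533 and ID_1534. Krt84 did not pass the filter, at 46.01 and 15 TPM in ID_1533 and ID_1534 and at most 0.33 TPM in the other 6 syngeneic mice. Krt85 was not analysed here. Several hair keratins and Krtap genes have near-identical copies, so that the authors' estimation may have divided reads between them and the level of a single copy is uncertain.

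In ID_1533 and ID_1534 the Krtap transcripts exceeded both the shaft keratins and the sheath genes, whereas in ID_1528 the sheath genes were higher. Their summed level was 1672, 53702 and 25548 TPM in ID_1528, ID_1533 and ID_1534, and 19.1, 22.2, 16.8 and 23.3 TPM in the resting mice, so that they took 5.37% of all transcripts in ID_1533. Of the 58 Krtap genes in the table, 50 passed the filter, and 49 of these 50 did not overlap between the sets. Their differences ran from 2.05 to 10.89 with a median of 6.80. The genes lie on chromosomes 16 (25 genes), 11 (23), 7 (5), 10 (3) and 1 (2).

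**Figure D1:**
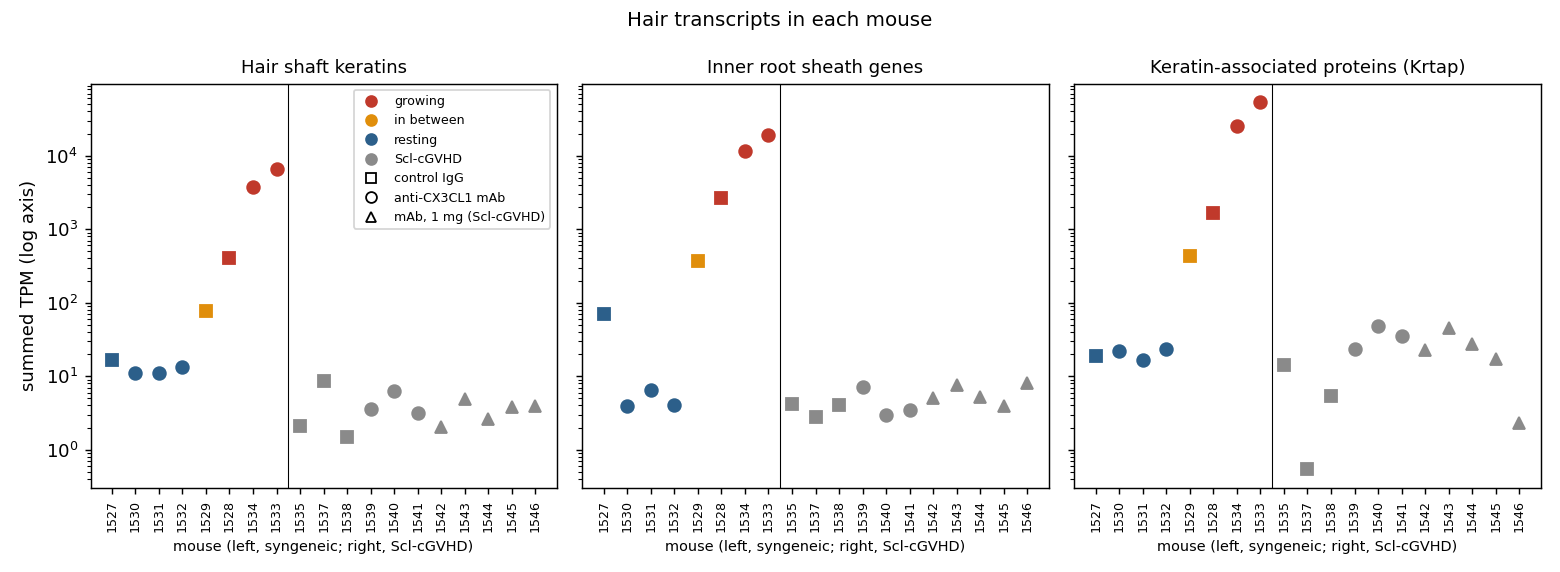
Summed TPM of the hair shaft keratins, the inner root sheath genes and the Krtap genes in each of the 19 mice, on a log axis. Squares are control IgG mice, circles mAb mice (0.5 mg in Scl-cGVHD) and triangles Scl-cGVHD mice given 1 mg. ID_1533 and ID_1534 stand highest, ID_1528 and ID_1529 lie between, and the 11 Scl-cGVHD mice reach at most 8.53 TPM for the shaft keratins.

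The inner root sheath differed as widely. Krt71, a sheath keratin, measured 850.22, 5492.58 and 3823.20 TPM in ID_1528, ID_1533 and ID_1534, and 19.59, 0.15, 0.40 and 0.16 TPM in ID_1527, ID_1530, ID_1531 and ID_1532. It had the largest difference of the ranked genes, 10.04 with a pooled SD of 1.82. Krt25 measured 629.06, 3644.56 and 2455.06 TPM in the growing mice, was listed at 0 in ID_1530 and stood at 16.85 TPM in ID_1527. Krt27, Krt72 and Krt73 differed by 9.57, 7.72 and 7.53. Tchh, which encodes trichohyalin, the protein that hardens the sheath and the medulla, stood at 308.61, 3030.82 and 1139.62 TPM in the growing mice and at most 4.95 TPM in the resting mice. All 9 ranked sheath genes were higher in growing skin, and Krt74 did not pass the filter.

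ID_1527 stood above the other resting mice in hair transcripts, most of all in the sheath. Its summed sheath level was 70.5 TPM, against 3.98, 6.51 and 4.01 TPM in ID_1530, ID_1531 and ID_1532. Its shaft keratin and Krtap sums (16.6 and 19.1 TPM) were close to theirs, but Krt32 and Krtap3-2 gave most of these sums. Without Krt32 the shaft keratins summed to 5.82 TPM in ID_1527 against 1.88, 1.53 and 2.43 TPM, and without Krtap3-2 the Krtap genes summed to 6.35 TPM against 1.56, 0.92 and 0.93 TPM. ID_1527 had received control IgG and the other 3 resting mice the mAb. The ratio of sheath to shaft keratin transcripts was 4.26, 6.61 and 4.78 in the 3 IgG mice and 0.358, 0.592, 0.302, 2.90 and 3.04 in the 5 mAb mice, so that the treatment groups did not overlap in this ratio. Without Krt32 the ratio was 12.1, 7.2 and 5.78 in the IgG mice and 2.12, 4.25, 1.65, 2.96 and 3.13 in the mAb mice, still without overlap, and ID_1527 moved from the lowest to the highest IgG mouse. Both ratios were chosen after values were seen and were given no test.

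Genes for the hardening of shaft and sheath followed. S100a3, a calcium-binding protein of the hair cuticle, stood at 356.82, 2457.59 and 1891.58 TPM in the growing mice and at 7.77, 3.59, 1.98 and 1.84 TPM in the resting mice, a difference of 8.11. Prr9 measured 400.72, 3737.63 and 1742.29 TPM against at most 4.44 TPM, a difference of 8.89. Padi3, a peptidylarginine deiminase that modifies trichohyalin, held 26.58, 192.36 and 106.33 TPM against 0.79, 0.20, 0.22 and 0.11 TPM. Gprc5d, an orphan receptor of the differentiating cortex, differed by 7.40 and Vsig8 by 6.01. The desmosomal cadherin of the shaft, Dsg4, was at 4.15, 32.93 and 6.67 TPM against at most 0.17 TPM. Of the 12 genes of this list, 9 were counted higher and none lower, with a median difference of 4.15. The cornulin gene Crnn, outside the lists, differed by 7.69.

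The outer root sheath, a layer that persists in part through rest, differed less. Krt75, the keratin of the companion layer, stood at 88.17, 379.35 and 225.15 TPM in the growing mice and 34.35, 35.31, 34.23 and 31.49 TPM in the resting mice. The resting values lay within 4 TPM of each other. Krt6a differed by 1.71 without overlap, Krt6b and Krt16 overlapped between the sets, and 2 of 6 genes (Krt75 and Krt6a) were counted higher.

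Transcription factors of the hair matrix were higher in growing skin with a smaller gap than the keratins. Msx2, a homeobox factor required for shaft differentiation, stood at 22.24, 76.64 and 54.84 TPM in ID_1528, ID_1533 and ID_1534 and at 3.89, 2.65, 4.13 and 2.45 TPM in the resting mice, a ratio of the means of 15.6. Lef1, the nuclear effector of Wnt signalling in the hair cortex, measured 14.45, 43.40 and 35.21 TPM against 3.83, 2.58, 3.12 and 2.12 TPM, a ratio of 10.7. Hoxc13, which directly controls hair keratin genes, measured 18.89, 75.55 and 51.66 TPM against 4.66, 3.28, 6.63 and 3.02 TPM, a ratio of 11.1. None of the 3 factors overlapped between the sets, and all were detected in resting skin. Foxn1, the gene mutated in nude mice, stood at 7.21, 44.72 and 23.37 TPM against 4.27, 3.95, 4.50 and 5.47 TPM, so that ID_1528 was barely above the resting mice. Dlx3 and Ovol1 differed by 3.13 and 1.25, and Gata3, a factor of the inner root sheath that is also expressed in epidermis, overlapped with a difference of -0.13. Of 17 ranked factors 10 were counted higher and none lower, with a median of 1.14.

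**Figure D2:**
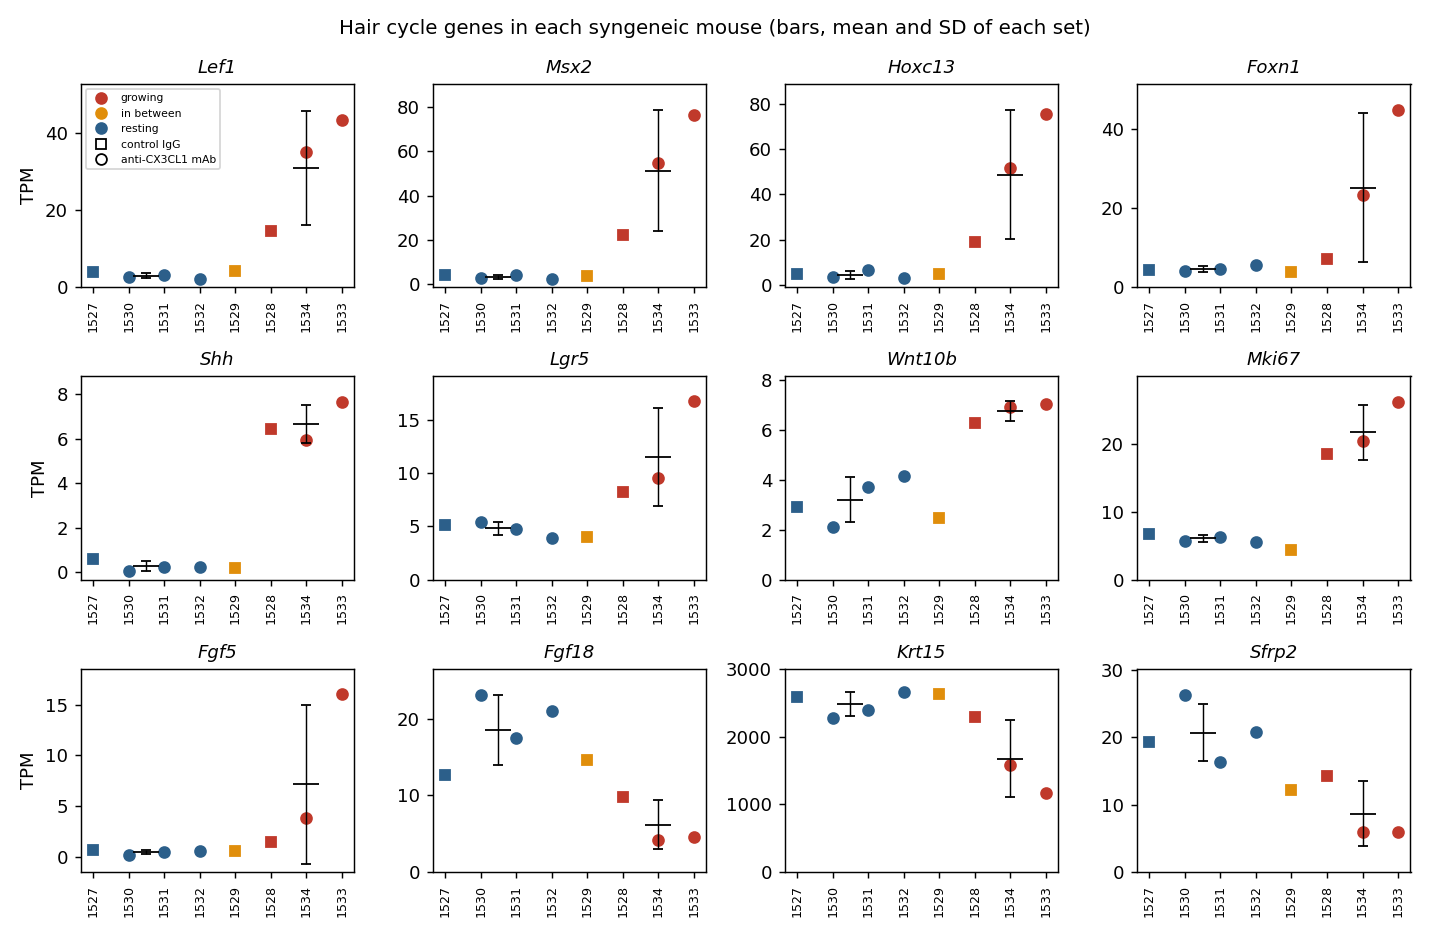
TPM of 12 hair cycle genes in each syngeneic mouse, resting mice at the left (blue), ID_1529 in orange and growing mice at the right (red), with squares for control IgG, circles for mAb and bars for the mean and SD of each set. Shh, Mki67 and Wnt10b stand in ID_1528 near the levels of ID_1533 and ID_1534, whereas Lef1, Msx2, Hoxc13 and Foxn1 are lower in ID_1528.

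Of 10 hedgehog signalling genes 5 were counted higher and none lower, with a median of 0.91. Shh, the ligand made by the matrix, stood at 6.42, 7.64 and 5.95 TPM in ID_1528, ID_1533 and ID_1534 and at 0.60, 0.04, 0.24 and 0.24 TPM in the resting mice. The growing values lay within 2 TPM of each other, unlike the keratins. The receptor and target Ptch1 differed by 1.07, the inhibitor Hhip by 1.11 and the target Gli1 by 1.52. Gli1 measured 18.22, 21.33 and 16.08 TPM against 6.71, 7.04, 6 and 3.90 TPM. Gli2 and Gli3 did not overlap but differed by less than 1, Smo and Boc overlapped, and Disp1 was lower without overlap with -0.80.

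Wnt genes moved in different directions. Among ligands, Wnt11 stood at 18.92, 51.31 and 39.96 TPM against 5.09, 6.62, 5.58 and 6.52 TPM, a difference of 2.34, and Wnt5a, which is made in the dermal papilla and matrix, differed by 1.18. Wnt10b, an epithelial ligand of early growth, did not overlap (6.30, 7.07 and 6.93 TPM against 2.10 to 4.15 TPM) but differed by 0.91 and was not counted. The receptor Fzd5 and the Wnt amplifier and stem cell marker Lgr5 differed by 1.57 and 1.06. The secreted inhibitor Sfrp2 was lower in growing skin, at 14.21, 5.89 and 5.94 TPM against 19.37, 26.36, 16.39 and 20.80 TPM, a difference of -1.25. Axin2, a general Wnt target, was not higher, at 25.91, 21.68 and 22.23 TPM against 31.68, 33.89, 33.42 and 26.34 TPM. Of 22 genes 5 were counted higher and 1 lower, with a median of 0.59.

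In the bulge and germ list 2 of 17 genes were counted higher (Cdh3 and Lgr5) and 2 lower (Fgf18 and Krt24), with a median of 0.18. Fgf18, made by bulge cells in telogen and known to hold follicles at rest, measured 9.85, 4.54 and 4.18 TPM in the growing mice and 12.62, 23.09, 17.46 and 20.98 TPM in the resting mice. Its resting mean was 2.99 times the growing mean, and ID_1527 was the lowest resting mouse. Krt24, a bulge keratin, stood at 1.92, 0.14 and 0.47 TPM against 2.72, 4.16, 2.90 and 2.74 TPM, a difference of -1.27. The bulge markers Cd34 and Nfatc1 did not overlap but differed by less than 1 (-0.87 and -0.77), and Krt15 overlapped. Cdh3, the cadherin of the hair germ and matrix, was higher, at 23.33, 42.22 and 38.74 TPM against 11.14 to 12.32 TPM.

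Among BMP and FGF genes, Fgf5, the signal that ends growth, stood at 1.47, 16.02 and 3.85 TPM in ID_1528, ID_1533 and ID_1534, and at 0.63, 0.18, 0.47 and 0.50 TPM in the resting mice. ID_1533 was thus far above the other growing mice for this gene. The BMP pseudoreceptor Bambi and Fgf22 differed by 2.38 and 1.69, the ligands Bmp2, Bmp4 and Bmp6 overlapped, and 3 of 17 genes were counted higher and 2 lower. In the dermal papilla list, Corin, a protease of the papilla, stood at 3.02, 4.92 and 2.82 TPM against 0.45, 0.12, 0.22 and 0.17 TPM, and the matrix proteoglycan gene Vcan at 24.67, 18.77 and 18.39 TPM against 6.71 to 11.94 TPM. Igfbp3 was lower, with a difference of -1.35. Of 9 Notch genes only the target Heyl was counted, at 6.38, 16.54 and 9.93 TPM against 1.54 to 2.27 TPM.

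Proliferation genes were higher throughout. All 36 cell cycle genes stood higher in each growing mouse than in each resting mouse, and 28 of them differed by at least 1, with differences from 0.63 to 2.30 and a median of 1.43. Birc5, a mitotic survival factor, measured 31.93, 45.56 and 58.49 TPM against 8.45, 8.44, 8.08 and 7.72 TPM, and Mki67, the Ki-67 antigen, 18.40, 26.12 and 20.42 TPM against 6.67, 5.65, 6.30 and 5.54 TPM. Their ratios of the means were 5.55 and 3.58. The summed cell cycle level was 944, 1115 and 1094 TPM in ID_1528, ID_1533 and ID_1534 and 360 to 439 TPM in the resting mice. In whole skin, more dividing cells and more of these transcripts in each cell cannot be told apart, and the same holds for every cell type named here.

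The 3 growing mice differed from each other by compartment. ID_1533 exceeded ID_1528 by 16.4 times in summed shaft keratins, 7.17 times in sheath genes and 32.1 times in Krtap genes, by 1.99 times in matrix factors, and by 1.18 and 1.11 times in cell cycle and hedgehog genes. ID_1534 exceeded ID_1528 by 9.47 times in shaft keratins and 1.16 times in cell cycle genes, and stood at 0.880 of its level in hedgehog genes. Of the 560 genes counted higher, 496 had their lowest growing value in ID_1528, the growing mouse lowest in the keratins that chose the sets. The share over all ranked genes was not taken, so nothing is read from the 496. Between ID_1533 and ID_1534 the shaft keratins differed by 1.73 times and the cell cycle genes by 1.02 times. This pattern rests on ID_1528 alone and has no spread.

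ID_1529 showed the reverse combination. Its shaft keratins stood at 5.86 times the resting mean, its sheath genes at 17.1 times and its Krtap genes at 21.1 times. Krt32, Krtap3-2 and, for the sheath, ID_1527 gave most of these resting means, so the ratios are not compared with each other. Without Krt32 the shaft keratins of ID_1529 summed to 62.9 TPM, against 1.53 to 5.82 TPM in the resting mice. Without Krtap3-2 its Krtap genes summed to 405 TPM, against 0.92 to 6.35 TPM. Krt71 measured 128.18 TPM in ID_1529. Its cell cycle genes summed to 439 TPM, the same as ID_1527, and Mki67 was 4.32 TPM, below all resting mice. Shh was 0.19 TPM, Lef1 4.15 TPM, Msx2 3.42 TPM and Hoxc13 4.84 TPM, all near resting values. The median over each list of log2(TPM + 1) above the resting mean was 2.35 for shaft keratins and 2.71 for sheath genes, against 0.02 for cell cycle genes, 0.01 for matrix factors and -0.13 for hedgehog genes. Of the 560 genes counted higher in growing skin, ID_1529 exceeded the highest resting mouse in 240. The share over all ranked genes was not taken, so nothing is read from this count.

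**Figure D3:**
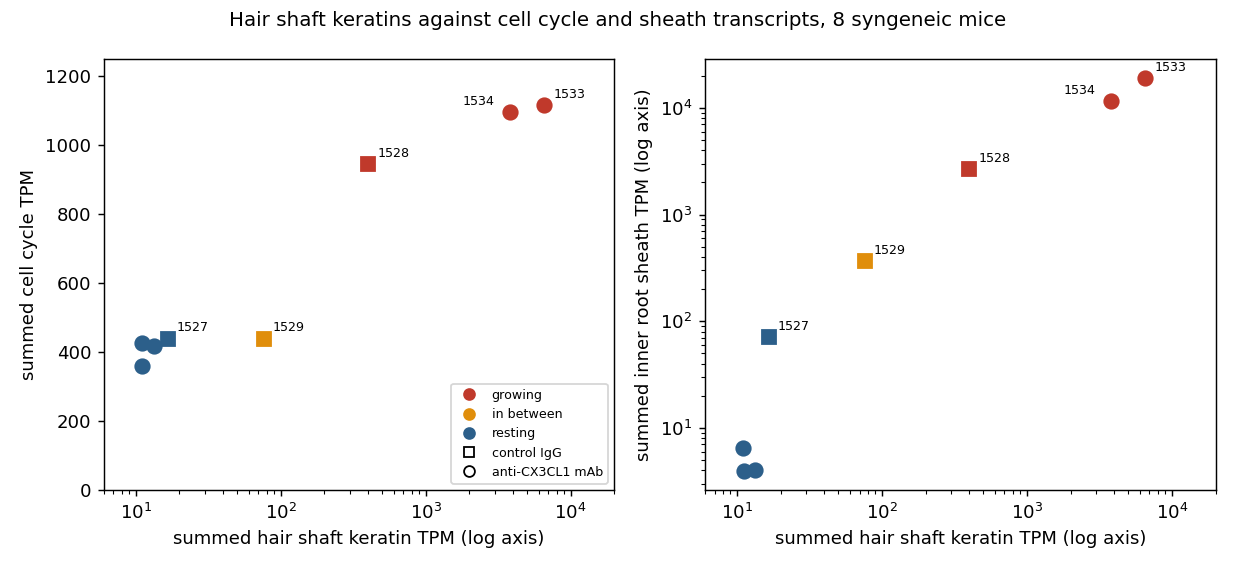
Summed TPM of hair shaft keratins (log axis) against summed cell cycle genes (left, linear axis) and against inner root sheath genes (right, log axis) in the 8 syngeneic mice, growing in red, resting in blue and ID_1529 in orange, with squares for control IgG and circles for mAb. ID_1528, at 400 TPM of shaft keratins, has 944 TPM of cell cycle genes, and ID_1529, at 76.1 TPM, has 439 TPM, within the resting level.

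**Figure D4:**
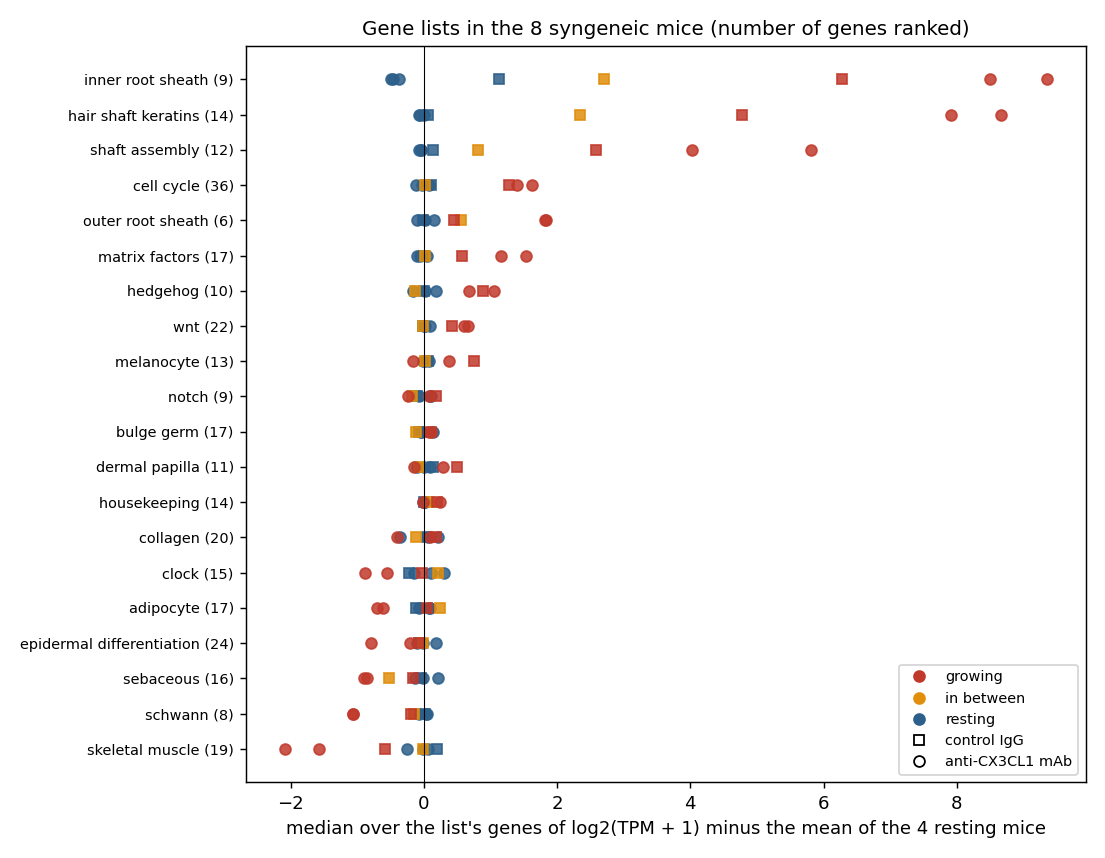
Median over each list's ranked genes of log2(TPM + 1) minus the mean of the 4 resting mice, for each of the 8 syngeneic mice, with the number of genes ranked beside the list's name. The hair lists lie up to 9.36 above the resting mean, the cell cycle list lies between 1.28 and 1.63 in the growing mice, and skeletal muscle lies below 0 in all 3.

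Most pigment genes overlapped between the sets. Pmel, a melanosome protein, stood at 18.53, 4.98 and 12.40 TPM in ID_1528, ID_1533 and ID_1534 against 5.13 to 7.36 TPM, and Dct at 44.39, 14.74 and 30.24 TPM against 12.74 to 21.87 TPM. ID_1528 was the highest for both, and ID_1533 lay below the resting range for Pmel and within it for Dct. Of 13 ranked melanocyte genes 2 did not overlap, Kit and Tyr, with differences of 0.47 and 0.87. None was counted, with a median difference of 0.38.

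Skeletal muscle transcripts were lower in growing skin. Myl1, a fast myosin light chain, measured 1321.06, 459.89 and 484.08 TPM in ID_1528, ID_1533 and ID_1534 against 2246.64, 2330.89, 1832.45 and 1946.08 TPM, and 18 of 19 skeletal muscle genes were counted lower, with a median of -1.37. The summed muscle level was 25366, 8790 and 12819 TPM in the growing mice and 31559 to 42382 TPM in the resting mice, a share of 2.54%, 0.879% and 1.28% against 3.16% to 4.24%. After rescaling without the Krtap, shaft and sheath genes, which took 0.472%, 7.92% and 4.09% of TPM in the growing mice, the muscle median was -1.31. Of the 12 largest negative differences, Mybph, Xirp1, Csrp3, Abra, Smpx and Sbk2 are genes of striated muscle. The largest was Pon1, a serum esterase gene, at 26.74, 1.73 and 4.97 TPM against 58.95, 73.46, 59.83 and 62.82 TPM, followed by Cyp2e1 with -2.04. Whether the samples held less muscle was not tested.

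**Figure D5:**
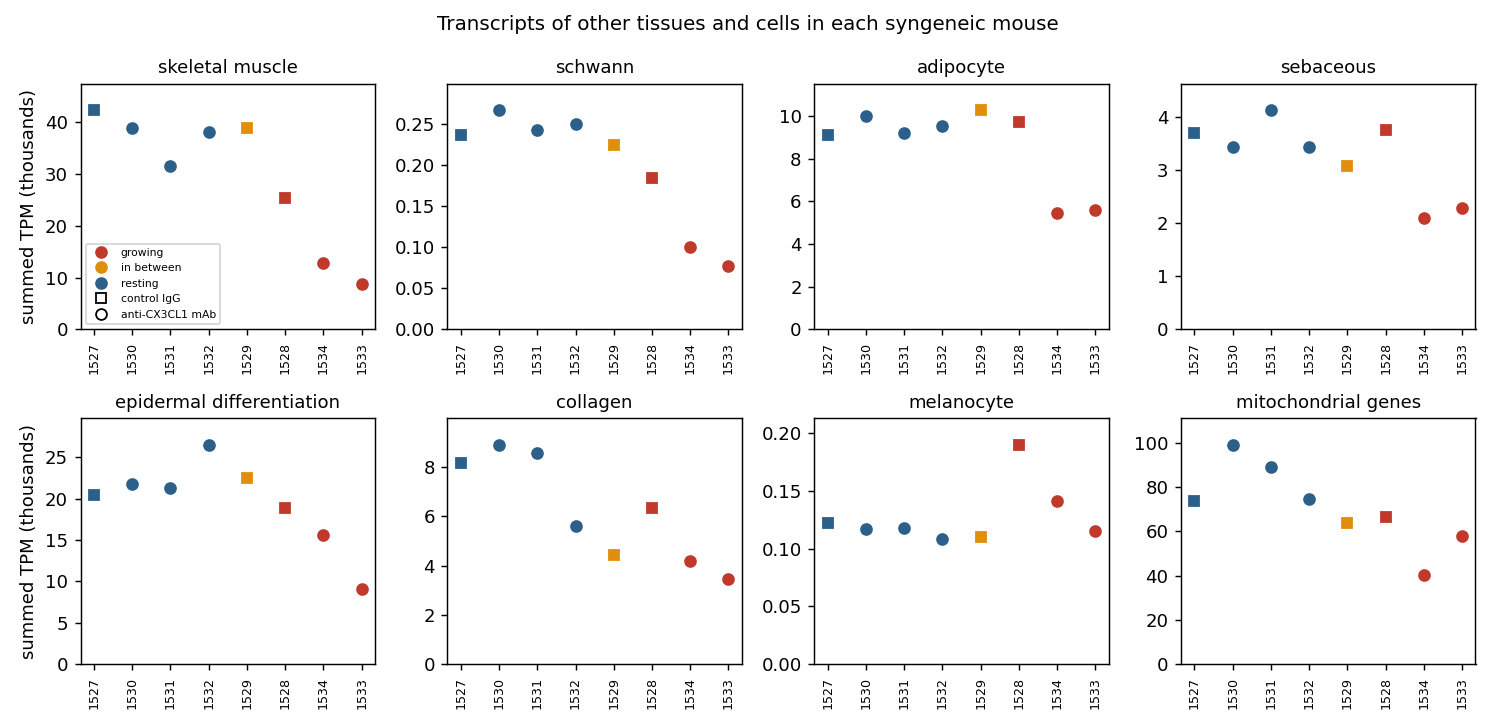
Summed TPM (axes from 0, scaled as the axis label states) of lists for other tissues and cells and of mitochondrially encoded genes in the 8 syngeneic mice, resting in blue, ID_1529 in orange and growing in red, with squares for control IgG and circles for mAb. Skeletal muscle and Schwann cell levels are lower in all 3 growing mice than in all 4 resting mice, and ID_1528 lies closer to the resting mice in most panels.

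Other tissue lists were lower mainly in ID_1533 and ID_1534. Schwann cell transcripts summed to 184, 77.3 and 100 TPM in the growing mice against 236 to 267 TPM, with the myelin gene Mbp counted lower. Adipocyte transcripts summed to 5567 and 5430 TPM in ID_1533 and ID_1534 but to 9729 TPM in ID_1528, within the resting range of 9114 to 10017 TPM, and 2 of 17 genes (Slc2a4 and Car3) were counted lower. Sebaceous genes gave 1 lower gene of 16, the desaturase Scd3, and a median of -0.65. Of 20 collagen genes Col11a1 and Col12a1 were counted higher and Col1a2 lower, with a median of 0.05. Col11a1 stood at 3.61, 3.87 and 4.51 TPM against 0.58 to 1.03 TPM. Mitochondrially encoded transcripts summed to 66363, 57956 and 40222 TPM against 73759 to 99280 TPM, again without overlap, and 0 of 14 housekeeping genes were counted. The part of tissue makeup in these values was not tested.

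The summed level of epidermal differentiation genes was lower in growing skin, at 18820, 9013 and 15663 TPM against 20503 to 26527 TPM, although no single gene of the list was counted lower. Of its 24 genes 16 had a negative difference, 9 of them without overlap. Krt5 and Krt14, keratins of the basal layer, overlapped between the sets, and all 8 mice held at least 2169 TPM of Krt5, as skin should. Casp14 and Flg, both of the cornified layer, were counted higher, at 95.10, 99.49 and 136.40 TPM against 26.14 to 38.86 TPM for Casp14. The remaining 22 of 24 differentiation genes were not counted, with a median of -0.42. Among T cell, Langerhans and dendritic, mast cell, neutrophil and B cell lists no gene was counted, and in the macrophage list 1 of 12 genes was counted higher, with a median of -0.18. Cx3cl1, the target of the mAb, stood at 6.94, 6.73 and 6.09 TPM in the growing mice and 5.19 to 7.43 TPM in the resting mice.

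Hair shaft keratins were near absent in Scl-cGVHD skin. The summed level was 1.5 to 8.53 TPM with a median of 3.53 TPM in the 11 Scl-cGVHD mice, below all 4 resting syngeneic mice. Krt32 gave most of the resting sums. Without it the resting mice summed to 5.82, 1.88, 1.53 and 2.43 TPM, inside the Scl-cGVHD range, which still included Krt32. Sheath genes summed to 2.79 to 8.20 TPM in Scl-cGVHD skin. That range held ID_1530, ID_1531 and ID_1532 (3.98, 6.51 and 4.01 TPM) but not ID_1527 (70.5 TPM). Krt32, which resting syngeneic skin kept near 10 TPM, had a median of 0.61 TPM and reached 5.23 TPM at most. Lef1 was 0.73 to 4.22 TPM, Shh at most 0.17 TPM and Fgf18 0.25 to 14.79 TPM. Cell cycle genes did not follow the hair genes there, at 524 to 1119 TPM, above the resting syngeneic range of 360 to 439 TPM. Krt6b and Krt16, keratins of injured epidermis, had medians of 2811 and 4041 TPM in Scl-cGVHD skin.

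The treatment comparison asked whether the mAb altered syngeneic skin and did not use the hair sets. Growing skin was seen in 1 of 3 control IgG mice and 2 of 5 mAb mice. With limma across 16350 genes and all 19 mice in 5 groups, no gene was higher (0%) and no gene lower (0%) in the 5 mAb mice than in the 3 IgG mice at a Benjamini-Hochberg adjusted p under 0.05, and 115 genes had an unadjusted p under 0.05. Krt71 differed by -1.99 with a standard error of 2.46 on the log2 scale (limma, adjusted p = 1), Krt31 by 0.76 with 1.80 and Krt25 by -2.01 with 2.39. Msx2 differed by 0.63 with a standard error of 0.90, Shh by 0.04 with 0.65 and Mki67 by 0.29 with 0.46, all with a limma adjusted p of 1. The standard error exceeded the difference in each of these genes, which does not show that the treatments acted alike.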

How the data were processed

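Skin RNA of 19 mice was sequenced as stranded mRNA libraries. The authors trimmed reads with Trimmomatic, aligned them with STAR 2.5.2b to GRCm38, estimated gene levels with RSEM 1.2.31 and deposited TPM, which sum to 1000000 in each library and keep no depth. The deposited gene lengths (other) were not used in any test. A deposited alignment summary names libraries by group and not by mouse and was not used, so the depth of each mouse is unknown.

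Growing and resting mice were set by their hair shaft keratin levels, and the members and gene lists were chosen with earlier results of these data known. Differences are means of log2(TPM + 1), for genes at 1 TPM or more in 3 of the 8 syngeneic mice. The pooled SD is the spread within the sets. Named genes were the 12 largest differences in each direction without overlap and with a mean of at least 5 TPM in the higher set (passing over Krtap, numbered gene models and antigen receptor segments), the shaft keratins, at most 4 genes per list, those that differed most in size,, and 12 hair cycle and skin genes (Lef1, Msx2, Hoxc13, Foxn1, Krt71, Dsg4, Shh, Mki67, Pmel, Krt15, Col1a1 and Adipoq). Other genes named were chosen after their values were seen. Labels say that samples are separate mice.

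mAb and control IgG syngeneic mice were compared with limma 3.58.1 (R 4.3.3) on log2(TPM + 1), with 5 groups, all 19 mice, a mean-variance trend, robust moderation and Benjamini-Hochberg adjustment, for genes at 1 TPM or more in 3 of 19 mice. The counting rule and the fit were tested on simulated data. The simulated spread was the same for every gene and smaller than the pooled SDs given for the hair keratins. These tests therefore do not show how the rule and the fit behave on such genes. Alternatives were a pseudocount of 0.1, other filters, rescaling without hair genes, median-ratio and quantile normalization, and leaving out each mouse. Promoter windows were taken from RefSeq. A planned relation to Krt85 across Scl-cGVHD mice was not run, since Krt85 was not analysed here.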

Additional observations from a re-analysis of the deposited data

Results flagged for a closer look

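Among 68 tests of summed list levels for a mouse far from the rest of its group (34 gene groups in the 4 resting mice and in the 5 mAb mice), 2 passed Dixon's 95% limit, where chance flags about 1 in 20. In the resting mice, the inner root sheath sum of ID_1527 (70.5 TPM) stood apart from the other 3, its gap being 0.846 of the range on the log2 scale. In the mAb mice, the T cell sum of ID_1534 (320 TPM) stood above the other 4, whose sums were 215 to 235 TPM, its gap being 0.780 of the range. In that list Thy1, which fibroblasts also express, measured 284.26 TPM in ID_1534, so it made up most of the sum.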

How the results depend on the processing

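Where the difference between hair-growing and resting skin was at least 1 in size, it kept its sign in all 527 alternative values. This covered 31 values, list medians and the genes among the 12 largest in each direction. Those genes were chosen because the sets did not overlap. Another pseudocount, filter or size limit, or leaving out a mouse, could therefore not reverse their sign, and nothing is read from it. Against 560 genes higher and 350 lower, a pseudocount of 0.1 gave 727 and 537, a filter of 5 TPM 373 and 322, ID_1529 placed with the growing mice 209 and 91, and a difference of at least 2 gave 180 and 2. Leaving out each mouse gave 373 to 650 higher and 183 to 871 lower genes, the extremes being without ID_1533 (373 and 183) and without ID_1528 (650 and 871). The share of higher genes among those counted was 61.5%, against 42.7% without ID_1528 and 98.9% at a difference of at least 2. Rescaling without hair genes moved the median of all genes from -0.019 to 0.034. Of 33 list medians, 23 kept their sign in every alternative. The other 10 (BMP and FGF, Notch, dermal papilla, collagen and 6 immune lists) had medians between -0.50 and 0.13 and changed sign in some.

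For mAb against IgG in syngeneic skin, no filter gave 1 gene higher (Grxcr2) and 1 lower (Gm43582), both at most 0.44 TPM. With the shaft keratin level as a covariate in the 8 syngeneic mice, 7 genes were called lower (4 of them sheath genes) and Krt71 differed by -3.03. That covariate is the value that chose the hair sets, and the sheath to shaft ratio had been seen, so these calls support nothing. Leaving out each mouse gave 0 to 0 higher and 0 to 1 lower genes, the gene being 2210013O21Rik without ID_1529 (limma adjusted p = 0.0209). No paired analysis was possible because the labels give mouse numbers and the treatment groups share none. The relation to Krt85 and its alternatives were not run. TPM without counts gives no depth per mouse, and the sets of 3 and 4 mice limit precision.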

Other observations

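Gene families taken whole by symbol, chosen after the values were seen, held further genes that were higher in growing skin. Over all 15274 ranked genes, the same rule counted 3.67% higher and 2.29% lower. Because the families were chosen in this way, nothing is read from their counts beside these shares. Of 17 ranked zinc transporter genes (Slc30a and Slc39a), 5 were counted higher and none lower, with a family median of 0.16. Slc39a10, an importer, stood at 38.87, 81.79 and 36.82 TPM in ID_1528, ID_1533 and ID_1534 against 7.97 to 12.96 TPM in the resting mice. Slc30a1, the exporter of the plasma membrane, stood at 30.37, 94.20 and 53.67 TPM against 12.42 to 13.36 TPM. Slc39a2, Slc39a6 and Slc39a8 differed by 1.90, 1.69 and 1.62. ID_1529 was at 8.36 TPM for Slc39a10 and 12.04 TPM for Slc30a1, near the resting mice.

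Connexins, the proteins of gap junctions, gave 3 of 12 ranked genes. Gjb2 stood at 116.77, 785.81 and 395.57 TPM against 9.10, 4.96, 8.65 and 3.91 TPM, Gjb6 at 9.11, 65.56 and 32.97 TPM against 0.95 to 1.23 TPM, and Gja1 at 234.47, 866.99 and 427.48 TPM against 108.37 to 132.58 TPM. The family median was -0.10. Of 4 ranked peptidylarginine deiminases 3 were counted higher, Padi1, Padi3 and Padi4. Of 9 amino acid carriers of the Slc7a and Slc3a families 3 were counted higher, with Slc7a8 at 15.28, 93.36 and 48.63 TPM against 2.65 to 4.12 TPM. Further families looked at had 1 or 2 genes counted higher. These were 2 of 12 S100 genes, 2 of 7 small proline-rich genes and 1 of 4 metallothioneins. There were also 1 of 28 hox genes and 1 of 17 interferon-induced genes. The late cornified envelope genes and the Ly6 and Lynx genes each gave 1 higher and 1 lower gene of 16.

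Some values set a single mouse apart. ID_1528 held 40.98 TPM of the leptin gene Lep, against 11.89 to 22.61 TPM in the other 7 syngeneic mice. It also held 9.04 TPM of the interferon-induced gene Rsad2, against 1.74 to 4.49 TPM. Rsad2 did not stand alone there. The median of the 17 ranked interferon-induced genes, as log2(TPM + 1) above the resting mean, was 0.80 in ID_1528. In the other 7 mice it was -0.37 to 0.39. In the IgG mice ID_1527 and ID_1528, 2210013O21Rik stood at 111.94 and 99.32 TPM, against 25.37 to 34.88 TPM in the other 6.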
